A study of Mus musculus with 18 samples.

Results

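Trp53, which encodes the transcription factor p53, was described together with its regulators and targets across ribosome footprints and total RNA of mouse medulloblastoma cells. The set was defined by 8 gene symbols, namely Trp53, Mdm2, Mdm4, Cdkn1a, Ccng1, Zmat3, Sesn1 and Trp53inp1, looked up in the gene names of the authors' tables. Of these, 6 were matched, out of 15307 gene features with reads, 9787 of which carry a symbol; Cdkn1a and Trp53inp1 were not analysed here. The cells are the GTML line, from tumours of mice in which a human MYCN transgene, under a tetracycline-responsive element driven through the Glt1 promoter, is expressed in hindbrain progenitors. They were grown in serum-free neural medium with EGF and bFGF, and all groups carry the human MYCN transgene. Cells received 50 nM Rapalink-1, 5 nM rapamycin or the vehicle DMSO for 3 h, in 3 replicates each. Each replicate gave a footprint library, from the mRNA stretches that nuclease leaves under ribosomes, and a total RNA library from an aliquot taken at lysis, so there were 9 libraries per assay and 18 in all. The design asks how mTOR inhibition changes translation. Rapamycin inhibits the mTOR kinase allosterically, and Rapalink-1 links rapamycin to an inhibitor of its ATP site. The drugs were used at different doses, so drug and dose cannot be told apart where they are set against each other.

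p53 is a transcription factor that accumulates under DNA damage and other stress and switches on genes for cell cycle arrest, DNA repair and cell death. Mdm2 is a ubiquitin ligase that marks p53 for degradation, and its relative Mdm4 binds and blocks p53. Both act in a feedback loop, since Mdm2 is itself a p53 target, and free ribosomal proteins such as Rpl11 and Rpl5 can bind Mdm2 and stop it. Loss of p53 function is known in part of human medulloblastomas. Whether p53 is functional in the cells used here was not tested.

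The footprint libraries held between 7692625 and 14150068 reads, and the RNA libraries between 6788365 and 13300292. Library composition was scaled with TMM factors, and levels below are given as CPM, read counts scaled to a common library size. The cell type marker levels in this paragraph are the exception, as they were scaled by library totals without TMM factors. Changes are relative to the other mRNAs of a library, since the labels name no spike-in, and in bulk samples fewer cells of a type and less RNA per cell cannot be told apart. The labels do not say that the replicates were separate cultures, so p-values measure only the spread between these samples. No pair of replicates agreed within sampling noise, with a chi-square per degree of freedom between 1.94 and 9.50. The file headers mark the footprint libraries of Rapalink-1 and DMSO with a letter that those of rapamycin lack. The running number in the headers also places all rapamycin libraries, RNA and footprints, after those of both other treatments. What the letter and the order mark is not stated, and neither can be told apart from rapamycin. Of 8 neural progenitor markers, 6 had a row and summed to 367 RNA CPM under Rapalink-1, 343 under rapamycin and 325 under DMSO. Most of this came from Vim, with 226, 187 and 178 CPM. Slc1a3, Fabp7, Msi1 and Prom1 were lower under Rapalink-1 than under DMSO, and Nes was slightly higher. For the granule neuron lineage 5 of 8 had a row, with 293, 331 and 269.8 CPM in the same order of treatments. Neurod1, Pax6 and Ptch1 were highest under rapamycin, while Zic1 and Zic2 were lowest there. Of 8 oligodendrocyte markers only Cnp was found, at 13.2, 11.9 and 9.25 CPM. Among microglial and blood markers Itgam and Hbb-bs were found, with sums of 105, 116 and 129 CPM, most of it from Itgam with 82.2, 90.8 and 99.8 CPM, and none of the 8 vascular and fibroblast markers was found. Markers without a row were not analysed here, and the part of other cells in the results was not tested.

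After Rapalink-1 the mRNAs of p53 and of both of its inhibitors carried more footprints than under DMSO, and their RNA passed no test. Footprints of Trp53 were 1.22-fold higher, those of Mdm2 1.42-fold and those of Mdm4 1.53-fold. The p53 target Ccng1, cyclin G1, moved the other way, with 1.87-fold fewer footprints and less RNA. RNA of Zmat3, a p53 target that encodes an RNA-binding zinc finger protein, was 2.33-fold lower. Under rapamycin RNA of Trp53 was 1.27-fold and of Mdm4 1.42-fold higher than under DMSO, and footprints of Trp53 were 1.11-fold higher. Of these, the footprint call was lost without DMSO replicate 1 or 2, without rapamycin replicate 1 and with only these treatments in the fit (edgeR adjusted p up to 0.16), and the RNA call of Trp53 without DMSO replicate 1 (0.099).

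Calls rest on the quasi-likelihood test of edgeR at a threshold of 0.05, after adjusting p-values over all genes of a comparison, and translational efficiency is the log2 change of footprints minus the log2 change of RNA in 1 fit of all libraries. All 6 genes passed the count filter in each fit. With Rapalink-1 against DMSO, 2 of 6 fell in RNA, where 38.2% of all genes were called in either direction and 18.8% as lower. In footprints 3 rose and 1 fell, against 53.7% of genes called, 25.7% as higher and 28% as lower. In translational efficiency 4 rose and 1 fell, against 42.2% called, 22.3% as higher and 19.9% as lower. The median change in efficiency was 0.51 over the 6 genes and 0.06 over all genes on the log2 scale.

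Rapamycin against DMSO gave 2 rises in RNA among the 6 genes, where 24.1% of all genes were called and 13.6% as higher. It gave 1 rise in footprints, where 18.1% were called and 8.75% as higher. None of the 6 was called in efficiency by edgeR, where 16.4% of all genes were; at an unadjusted p under 0.05 there was 1, and the Wald test of DESeq2 called 0. Between the drugs, 4 genes were lower in RNA under Rapalink-1 than under rapamycin, where 41.1% of genes were called and 21.5% as lower. In footprints 3 were higher and 2 lower, against 53.1% called, 25.4% as higher and 27.6% as lower. In efficiency 4 were higher, against 50.1% called and 26.1% as higher. The comparisons with DMSO share their control libraries, and both comparisons of Rapalink-1 share its libraries.

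Scaling by library totals in place of TMM moved the middle of all genes. The all-gene median with Rapalink-1 against DMSO became -0.13 in RNA, 0.28 in footprints and 0.43 in efficiency. The split of all called genes, which was 2182 higher and 2123 lower in RNA, became 1123 and 3731. In footprints it was 2896 higher and 3161 lower and became 5400 and 1587, and in efficiency it was 2455 and 2182 and became 5563 and 841. Between the drugs, RNA gave 1056 higher and 3963 lower, against 2213 and 2422 with TMM. Footprints between the drugs gave 4979 and 1830, against 2870 and 3119, and efficiency to 5179 and 1196, against 2873 and 2631. For rapamycin against DMSO, footprints gave 1391 higher and 654 lower, against 987 and 1060, and efficiency 930 and 846, against 716 and 1082. The changes of the 6 genes therefore hold relative to the scaling named, and where another scaling ends a call it is said beside the gene.

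**Figure D1:**
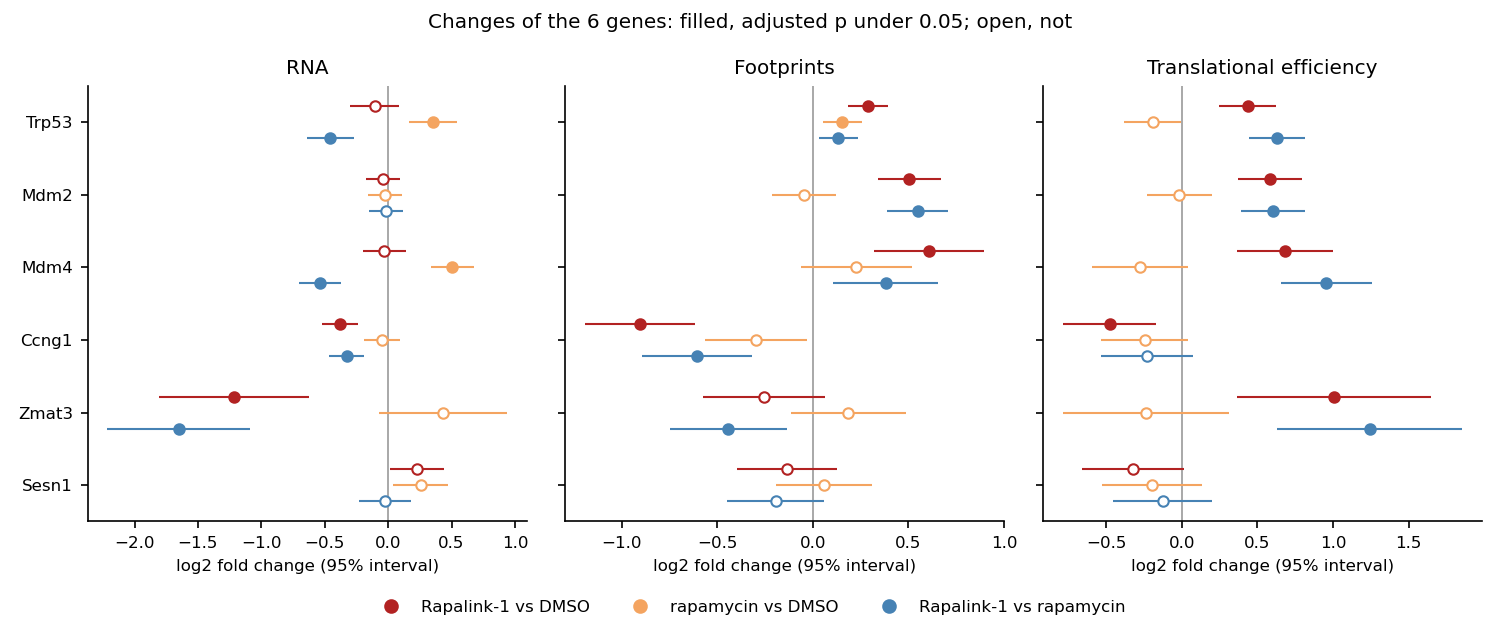
Log2 fold change (horizontal axis) of RNA, footprints and translational efficiency for the 6 genes, with 95% intervals from edgeR; red is Rapalink-1 against DMSO, orange rapamycin against DMSO, blue Rapalink-1 against rapamycin, and filled points have an adjusted p under 0.05. In efficiency, Trp53, Mdm2, Mdm4 and Zmat3 lie right of 0 with Rapalink-1 against DMSO, between 0.44 and 1.01, and Ccng1 lies left of 0 at -0.48.

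The 5′ ends of the mRNAs are shown because mRNAs that start with a C followed by pyrimidines, the terminal oligopyrimidine or TOP mRNAs, are known to depend most on mTOR for translation. The first 30 bases from the RefSeq start in build GRCm38.p6 are printed 5′ to 3′, with runs of 5 or more pyrimidines in capitals, for p53, its inhibitors, Ccng1, and Rpl11, a ribosomal protein gene whose efficiency is given further on.
Trp53, chr11:69580359-69580388, plus strand: TTTCCCCTCCCacgtgctcaccctggctaa
Mdm2, chr10:117710729-117710758, minus strand: gTTCTCTCCgcggacggtagggggcgctcg
Mdm4, start 1, chr1:133025387-133025416, minus strand: tctatggTTCCCCCggCCTCCCCggaagct
Mdm4, start 2, chr1:133030558-133030587, minus strand: gggtgggtttgtggtggtggtttaaggcag
Ccng1, chr11:40755257-40755286, minus strand: accaatcagcgacgtagatgcgtcccagct
Rpl11, chr4:136053364-136053393, minus strand: acggggccggaagTCTCCCTCTCTCTTCCT
The annotated starts of Trp53, Mdm2 and Mdm4 start 1 hold pyrimidine runs of up to 11, 8 and 7 bases, and that of Ccng1 holds none of 5 or more. A run of this kind, on the strand of the mRNA, is in 44% of all 32851 starts of the table, in 4 of 7 starts of the matched genes and in 46 of 70 starts of cytosolic ribosomal protein genes. A C at the first base followed by 4 pyrimidines is at 823 starts, or 2.51%, at 0 of the 7 starts and at 13 of the 70, or 18.6%. Rpl11, a known TOP mRNA, has its long run 13 bases after the annotated start, so these windows need not begin at the first base of the mRNA in these cells. Zmat3 had no entry in the table, and Sesn1 had 2 starts, 1 of them with a run of 6.

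Trp53 (ENSMUSG00000059552, chr11:69580348-69591873 in RefSeq GRCm38.p6) had between 3148 and 6606 footprint reads and between 253 and 484 RNA reads per library. Its footprints were at 533, 571 and 539.7 CPM under Rapalink-1, 519.6, 495 and 484 CPM under rapamycin, and 445, 441 and 459 CPM under DMSO. The treatments form 3 levels that do not overlap, with Rapalink-1 highest and DMSO lowest. Against DMSO the log2 change was 0.29 ± 0.051 (SE) for Rapalink-1 (edgeR adjusted p = 7.7e-06) and 0.15 ± 0.051 for rapamycin (edgeR adjusted p = 0.028). These lie at percentiles 71.3 and 73.5 of all genes tested. Between the drugs it was 0.13 ± 0.051 (edgeR adjusted p = 0.025). Trp53 RNA was at 27.5, 28.9 and 28.8 CPM under Rapalink-1, 40.1, 38.7 and 38.0 CPM under rapamycin, and 25.9, 30.8 and 36.1 CPM under DMSO. The rapamycin libraries lie above all others, while those of Rapalink-1 lie within the wide range of DMSO. RNA was higher after rapamycin than DMSO by 0.35 ± 0.094 (edgeR adjusted p = 0.0044), and lower under Rapalink-1 than rapamycin by a log2 change of -0.46 ± 0.092 (edgeR adjusted p = 8.6e-05). With Rapalink-1 against DMSO the RNA difference was -0.11, with a 95% interval from -0.30 to 0.09.

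Footprints per RNA of Trp53, as the ratio of both CPM values for libraries of the same replicate number, were 19.4, 19.8 and 18.7 under Rapalink-1, 13.0, 12.8 and 12.7 under rapamycin, and 17.2, 14.3 and 12.7 under DMSO. All ratios of Rapalink-1 lie above those of the other treatments, and those of rapamycin lie at the lower end of the DMSO range. Translational efficiency of Trp53 rose with Rapalink-1, by 0.44 ± 0.094 against DMSO (edgeR adjusted p = 0.00016), at percentile 77.3 of all genes tested, and by 0.63 ± 0.092 against rapamycin (edgeR adjusted p = 7.8e-08). Rapamycin against DMSO gave -0.19, with a 95% interval from -0.38 to -0.01 and an edgeR adjusted p of 0.16. Both footprint calls that involve rapamycin were lost under several settings. Against DMSO the call was lost without DMSO replicate 1 (edgeR adjusted p = 0.069) or 2 (0.099), without rapamycin replicate 1 (0.16), and with only these treatments in the fit (0.063), and between the drugs without rapamycin replicate 2 (0.063) or 3 (0.11), without Rapalink-1 replicate 2 (0.15) and with no count filter (0.053). The rise of RNA after rapamycin was lost without DMSO replicate 1 (0.23, edgeR adjusted p = 0.099), the efficiency of rapamycin against DMSO passed without DMSO replicate 3 (-0.29, edgeR adjusted p = 0.023), and RNA of Rapalink-1 against DMSO passed as lower with library totals (-0.24, edgeR adjusted p = 0.039). A pseudogene, Trp53-ps, lies at chr17:54419597-54421236, and how reads shared with it were counted is not stated.

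Mdm2 (ENSMUSG00000020184, chr10:117688875-117710758), the ubiquitin ligase of p53, rose in footprints under Rapalink-1 and passed no test with rapamycin against DMSO. Footprints were at 56.9, 66.5 and 64.9 CPM under Rapalink-1, 44.5, 42.7 and 41.1 CPM under rapamycin, and 46.2, 46.0 and 40.1 CPM under DMSO. Every Rapalink-1 library lies above every other library, and rapamycin and DMSO overlap. RNA was at 66.5, 70.7 and 64.4 CPM under Rapalink-1, 65.2, 68.9 and 69.6 CPM under rapamycin, and 66.5, 74.6 and 65.6 CPM under DMSO. All treatments overlap in RNA. Footprints rose with Rapalink-1 by 0.50 ± 0.081 against DMSO (edgeR adjusted p = 1.7e-06) and by 0.55 ± 0.080 against rapamycin (edgeR adjusted p = 2.5e-07). For rapamycin against DMSO the footprint difference was -0.04, with a 95% interval from -0.21 to 0.12. The RNA difference was -0.04 for Rapalink-1 against DMSO, with an interval from -0.17 to 0.09, and -0.02 for rapamycin against DMSO, with an interval from -0.16 to 0.11.

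The ratio of footprints to RNA of Mdm2 was 0.855, 0.941 and 1.01 under Rapalink-1, 0.683, 0.620 and 0.591 under rapamycin, and 0.695, 0.617 and 0.612 under DMSO. Rapalink-1 again lies apart and above. Efficiency of Mdm2 rose by 0.58 ± 0.11 with Rapalink-1 against DMSO (edgeR adjusted p = 9.9e-06) at percentile 85.7 of all genes tested, and by 0.60 ± 0.10 against rapamycin (edgeR adjusted p = 3.1e-06). With rapamycin against DMSO it was -0.02, with a 95% interval from -0.23 to 0.20. None of the leave-outs or other settings ended a Mdm2 call, while scaling by library totals made its RNA pass as lower with Rapalink-1, by -0.18 against DMSO (edgeR adjusted p = 0.029) and -0.16 against rapamycin (edgeR adjusted p = 0.049).

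Mdm4 (ENSMUSG00000054387, chr1:132986105-133030587), the relative of Mdm2 that blocks p53 without being an effective ligase on its own, rose in footprints under Rapalink-1 and in RNA under rapamycin. Footprints were at 15.8, 17.2 and 17.2 CPM under Rapalink-1, 13.0, 10.4 and 14.9 CPM under rapamycin, and 10.5, 10.1 and 12.2 CPM under DMSO. The Rapalink-1 libraries are the highest, and rapamycin and DMSO overlap. RNA was at 33.7, 37.4 and 33.0 CPM under Rapalink-1, 52.5, 45.9 and 52.97 CPM under rapamycin, and 34.9, 36.8 and 34.2 CPM under DMSO. Here the rapamycin libraries stand above both other treatments, which overlap. Mdm4 footprints rose with Rapalink-1 by 0.61 ± 0.14 against DMSO (edgeR adjusted p = 0.00039) and by 0.38 ± 0.14 against rapamycin (edgeR adjusted p = 0.016). RNA rose after rapamycin by 0.51 ± 0.083 against DMSO (edgeR adjusted p = 7e-06), and Rapalink-1 against rapamycin gave -0.54 ± 0.081 (edgeR adjusted p = 6.2e-07). The footprint difference of rapamycin against DMSO was 0.23, with a 95% interval from -0.06 to 0.52, and the RNA difference of Rapalink-1 against DMSO was -0.03, with an interval from -0.20 to 0.14.

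Mdm4 had footprint to RNA ratios of 0.470, 0.461 and 0.522 under Rapalink-1, 0.247, 0.227 and 0.282 under rapamycin, and 0.301, 0.274 and 0.356 under DMSO. The values of Rapalink-1 are above all others, and rapamycin and DMSO overlap. Efficiency of Mdm4 rose with Rapalink-1 by 0.68 ± 0.16 against DMSO (edgeR adjusted p = 0.00039), at percentile 90.1 of all genes, and by 0.95 ± 0.15 against rapamycin (edgeR adjusted p = 3.8e-07). For rapamycin against DMSO it was -0.27, with a 95% interval from -0.59 to 0.04. Without rapamycin replicate 2 the footprint difference between the drugs was 0.26 and no longer called (edgeR adjusted p = 0.13). A pseudogene, Mdm4-ps, lies at chrX:128261261-128264809, and reads shared with it could not be traced.

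**Figure D2:**
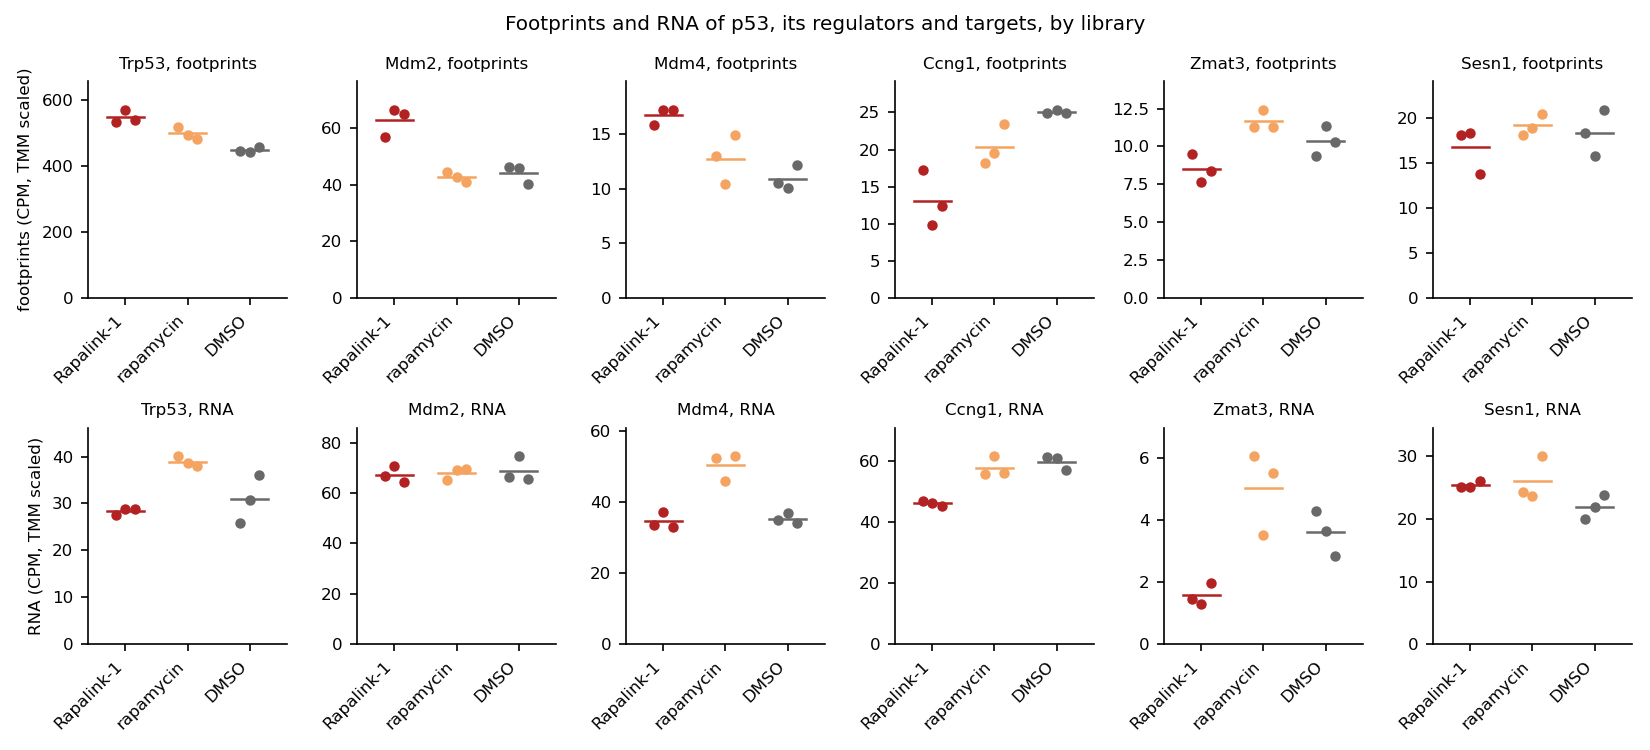
Footprints (upper row) and RNA (lower row) of the 6 genes in CPM by library, with Rapalink-1 in red, rapamycin in orange and DMSO in grey; points are the 3 replicates and lines their means, and every axis starts at 0. Trp53, Mdm2 and Mdm4 footprints are highest under Rapalink-1, Ccng1 footprints are lowest there, and RNA of Trp53 and Mdm4 is highest under rapamycin.

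Ccng1 (ENSMUSG00000020326, chr11:40748552-40755309) encodes cyclin G1, a p53 target that directs protein phosphatase 2A to Mdm2. Its footprints were at 17.2, 9.82 and 12.4 CPM under Rapalink-1, 18.1, 19.5 and 23.4 CPM under rapamycin, and 24.98, 25.4 and 24.9 CPM under DMSO. The treatments do not overlap, with Rapalink-1 lowest, rapamycin between and DMSO highest, and the replicates spread most under Rapalink-1, with 13.1 ± 3.74 CPM there and 25.1 ± 0.261 CPM under DMSO (SD, n = 3 each). Footprints fell with Rapalink-1, by a log2 change of -0.90 ± 0.14 against DMSO (edgeR adjusted p = 2e-06) and -0.61 ± 0.14 against rapamycin (edgeR adjusted p = 0.00052). Rapamycin against DMSO gave -0.30, with a 95% interval from -0.57 to -0.03 and an edgeR adjusted p of 0.12. Ccng1 RNA was at 46.8, 46.3 and 45.2 CPM under Rapalink-1, 55.6, 61.6 and 56.1 CPM under rapamycin, and 61.3, 60.8 and 57.2 CPM under DMSO. Rapalink-1 lies below the other treatments, which overlap. RNA fell with Rapalink-1, by -0.38 ± 0.071 against DMSO (edgeR adjusted p = 3e-05) and by -0.33 ± 0.070 against rapamycin (edgeR adjusted p = 0.00018). For rapamycin against DMSO the RNA difference was -0.05, with an interval from -0.19 to 0.09.

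Ratios of footprints to RNA for Ccng1 were 0.367, 0.212 and 0.274 under Rapalink-1, 0.326, 0.317 and 0.417 under rapamycin, and 0.408, 0.417 and 0.435 under DMSO. Rapalink-1 and DMSO do not overlap, and rapamycin overlaps both. Efficiency fell with Rapalink-1 against DMSO, by a log2 change of -0.48 ± 0.15 (edgeR adjusted p = 0.0091). It was -0.24 for rapamycin against DMSO, with a 95% interval from -0.53 to 0.04, and -0.23 between the drugs, with an interval from -0.54 to 0.07. The efficiency call against DMSO was lost without Rapalink-1 replicate 2, which has the lowest ratio (-0.32, edgeR adjusted p = 0.10), and with library totals (-0.11, edgeR adjusted p = 0.55). Other calls appeared on leaving out a replicate, namely efficiency between the drugs without Rapalink-1 replicate 1 (-0.50, edgeR adjusted p = 0.011) and footprints of rapamycin against DMSO without rapamycin replicate 3 (-0.41, edgeR adjusted p = 0.049).

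Zmat3 (ENSMUSG00000027663, chr3:32334792-32365665), a p53 target whose product binds RNA and acts in splicing and mRNA stability, had the fewest reads of the set, between 15 and 59 RNA reads and between 66 and 143 footprint reads per library. RNA was at 1.45, 1.31 and 1.98 CPM under Rapalink-1, 6.06, 3.52 and 5.53 CPM under rapamycin, and 4.31, 3.66 and 2.85 CPM under DMSO. The Rapalink-1 libraries are the lowest, and rapamycin and DMSO overlap. Zmat3 RNA fell with Rapalink-1 by a log2 change of -1.22 ± 0.29 against DMSO (edgeR adjusted p = 0.00087), at percentile 0.364 of all genes, and of -1.65 ± 0.28 against rapamycin (edgeR adjusted p = 5e-06). The RNA difference of rapamycin against DMSO was 0.43, with a 95% interval from -0.07 to 0.94.

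Footprints of Zmat3 were at 9.52, 7.62 and 8.35 CPM under Rapalink-1, 11.3, 12.4 and 11.3 CPM under rapamycin, and 9.36, 11.4 and 10.3 CPM under DMSO. Rapalink-1 lies below rapamycin and overlaps DMSO, and 1 DMSO library lies above the lower rapamycin values. The footprint difference was -0.44 ± 0.15 between the drugs (edgeR adjusted p = 0.013), and -0.25 against DMSO, with an interval from -0.57 to 0.06. The call between the drugs was lost without Rapalink-1 replicate 2 (-0.37, edgeR adjusted p = 0.059) and with library totals (-0.22, edgeR adjusted p = 0.21). For rapamycin against DMSO the footprint difference was 0.19, with an interval from -0.11 to 0.49. The ratios of footprints to RNA were 6.55, 5.82 and 4.23 under Rapalink-1, 1.86, 3.53 and 2.04 under rapamycin, and 2.17, 3.10 and 3.61 under DMSO. All of Rapalink-1 lies above both other treatments. Efficiency was higher under Rapalink-1 by 1.01 ± 0.32 against DMSO (edgeR adjusted p = 0.0087) and by 1.24 ± 0.30 against rapamycin (edgeR adjusted p = 0.00056), with lower RNA and not with more footprints. The efficiency call against DMSO was lost without DMSO replicate 1 (0.78, edgeR adjusted p = 0.084) and without Rapalink-1 replicate 1 (0.84, edgeR adjusted p = 0.067). Efficiency of Zmat3 for rapamycin against DMSO was -0.24, with an interval from -0.79 to 0.31.

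Sesn1 (ENSMUSG00000038332, chr10:41810574-41908436) encodes sestrin 1, a p53 target that restrains mTORC1 through the amino acid sensing complex GATOR2, and it passed no test with all libraries. RNA was at 25.1, 25.1 and 26.1 CPM under Rapalink-1, 24.4, 23.7 and 30.02 CPM under rapamycin, and 20.0, 21.9 and 23.8 CPM under DMSO. The Rapalink-1 libraries lie above those of DMSO, and rapamycin overlaps DMSO at its lower end. The RNA difference was 0.23 for Rapalink-1 against DMSO, with a 95% interval from 0.02 to 0.44 (edgeR adjusted p = 0.085), and 0.26 for rapamycin against DMSO, with an interval from 0.04 to 0.47 (edgeR adjusted p = 0.074). Both passed without DMSO replicate 3, at 0.28 for Rapalink-1 (edgeR adjusted p = 0.047) and 0.31 for rapamycin (edgeR adjusted p = 0.039), and that of rapamycin also without rapamycin replicate 2 (0.32, edgeR adjusted p = 0.048). Sesn1 footprints were at 18.1, 18.3 and 13.8 CPM under Rapalink-1, 18.1, 18.9 and 20.4 CPM under rapamycin, and 18.3, 15.7 and 20.9 CPM under DMSO. All treatments overlap. The footprint difference was -0.14 for Rapalink-1 against DMSO, with an interval from -0.40 to 0.12, 0.06 for rapamycin against DMSO, from -0.19 to 0.31, and -0.19 between the drugs, from -0.45 to 0.06. The ratios of footprints to RNA were 0.720, 0.726 and 0.527 under Rapalink-1, 0.744, 0.795 and 0.681 under rapamycin, and 0.913, 0.718 and 0.878 under DMSO. These overlap too, and the efficiency difference was -0.32 for Rapalink-1 against DMSO, with an interval from -0.66 to 0.01. It was -0.20 for rapamycin against DMSO, from -0.53 to 0.14, and -0.13 between the drugs, from -0.45 to 0.20.

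In DMSO the genes differed widely in footprints per RNA, a ratio within each gene that needs no gene length if the same stretch was counted in both assays, which the sources used here do not say. Trp53 had a mean ratio of 14.7 ± 2.25 (SD, n = 3), rank 29 of 10982 genes, with 99.7% of genes below it. Zmat3 followed with 2.96 ± 0.729 and 93.0% of genes below. Sesn1 was at 0.836 ± 0.104, Mdm2 at 0.641 ± 0.0466, Ccng1 at 0.420 ± 0.0141 and Mdm4 at 0.310 ± 0.0419, with 4.18% of genes below Mdm4. No neighbours in this order overlapped in their DMSO replicates, the closest being Sesn1, with a lowest ratio of 0.718, and Mdm2, with a highest of 0.695. Under Rapalink-1 the order differed in the lower part, where every Mdm2 ratio, from 0.855 up, lay above every Sesn1 ratio, up to 0.726, and every Mdm4 ratio, from 0.461 up, lay above every Ccng1 ratio, up to 0.367.

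**Figure D3:**
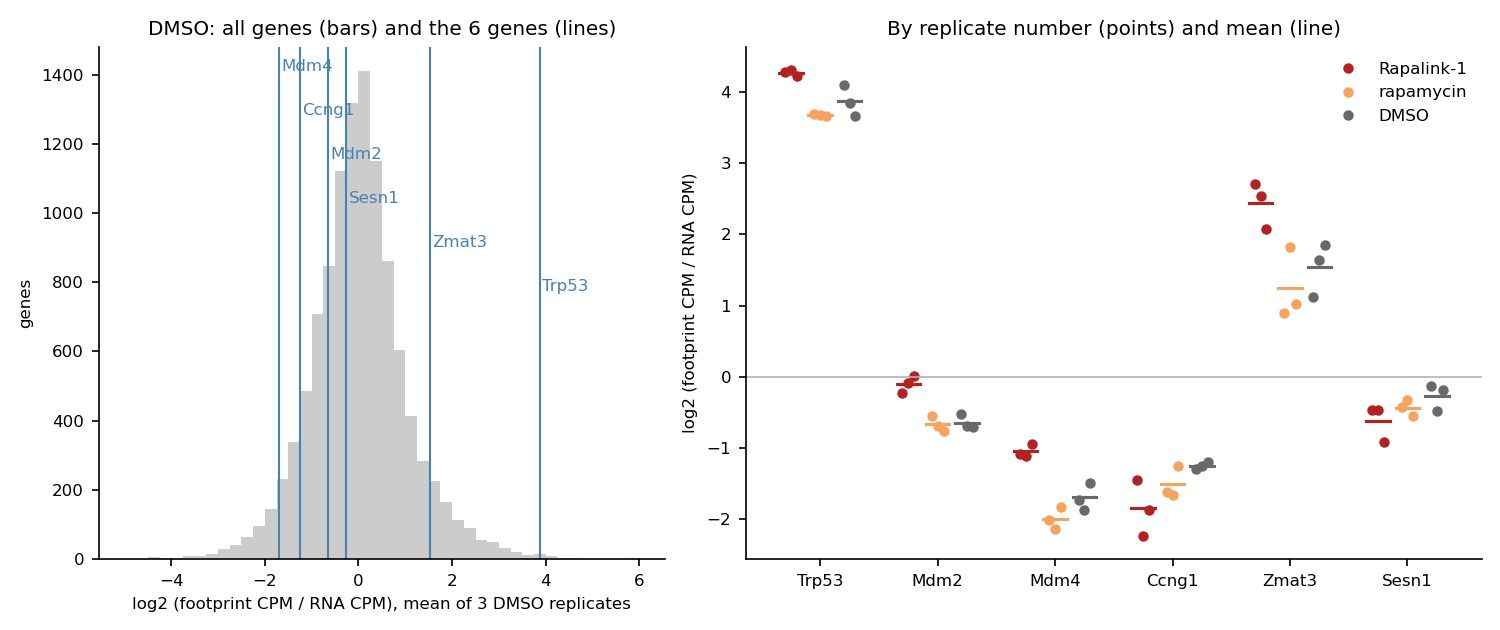
Left, the number of genes (vertical axis) by the log2 ratio of footprint CPM to RNA CPM, mean of the 3 DMSO replicates, with blue lines at the 6 genes; right, the same log2 ratio for each replicate number of Rapalink-1 (red), rapamycin (orange) and DMSO (grey), with lines at the means. Trp53 lies in the right tail, with 99.7% of genes below, and Mdm4 in the left tail, with 4.18% below. Under Rapalink-1 the ratios of Trp53, Mdm2, Mdm4 and Zmat3 lie above those of both other treatments. The share of all genes separated in this way is not given here. In efficiency 42.2% of all genes were called with Rapalink-1 against DMSO and 50.1% against rapamycin.

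The rest of the pathway was described from lists drawn up from general knowledge, by counts and medians without a set test, to be read against the shares of all genes; Rps27l, Sesn2 and Plk2 each sit in 2 lists. Of 42 symbols of further regulators of p53 and Mdm2, among which Rfwd2 and Pirh2 are other names of Cop1 and Rchy1, 37 were tested. With Rapalink-1 against DMSO 14 of them rose in efficiency and 6 fell, beside 22.3% and 19.9% of all genes, with a median of 0.26 on the log2 scale against 0.06 over all genes, and with library totals 27 rose and 2 fell, with a median of 0.62 against 0.43. In footprints 12 rose and 9 fell, where 53.7% of all genes were called. With library totals this was 26 and 3, where 5400 of all genes rose and 1587 fell. In RNA 9 rose and 12 fell, where 38.2% of all genes were called. With library totals this was 5 and 18, where 1123 of all genes rose and 3731 fell. Crebbp, an acetyltransferase of p53, rose in efficiency by 1.22 ± 0.12 (edgeR adjusted p = 5.7e-12), with footprints up by 0.71 ± 0.068. Huwe1, a ubiquitin ligase that acts on p53, rose in efficiency by 0.87 ± 0.085 (edgeR adjusted p = 5e-11). Both went the other way in efficiency under rapamycin against DMSO, with -0.70 ± 0.12 for Crebbp (edgeR adjusted p = 1.1e-05) and -0.84 ± 0.084 for Huwe1 (edgeR adjusted p = 2.1e-09). Atm, the kinase that reports DNA breaks to p53, rose in footprints by 0.68 ± 0.073 (edgeR adjusted p = 3.1e-10) with Rapalink-1 against DMSO. The kinase Atr rose in RNA by 0.55 ± 0.062 (edgeR adjusted p = 1.3e-09), and RNA of Usp10, which removes ubiquitin from p53, fell by a log2 change of -0.61 ± 0.056 (edgeR adjusted p = 4.1e-12). Npm1, nucleophosmin, which binds Mdm2 and its inhibitor Arf, had the largest fall of the list in efficiency, -1.60 ± 0.060 (edgeR adjusted p = 9.4e-30), with footprints at -1.30 ± 0.046 and RNA at 0.34 ± 0.039. Under rapamycin 3 of the 37 rose and 9 fell in efficiency against DMSO, where 16.4% of all genes were called, 716 higher and 1082 lower of 10988.

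Of the lists, that of ribosomal and nucleolar proteins that bind or regulate Mdm2 fell most in efficiency. Whether other ribosomal protein genes fell as much was not compared here. Of 13 symbols listed, among which Pict1 and Gltscr2 are other names of Nop53, 11 were tested. With Rapalink-1 against DMSO 9 fell and 1 rose in efficiency, where 19.9% of all genes fell and 22.3% rose. The median was -1.99 against 0.06 over all genes. With library totals the median was -1.62 against 0.43, and 9 fell while 2 rose, where 841 of all genes fell and 5563 rose. Footprints fell for 10 and rose for 1, where 28% of all genes fell and 25.7% rose. RNA rose for 7 and fell for 2, where 38.2% of all genes were called. With library totals RNA rose for 2 and fell for 3, where 1123 of all genes rose and 3731 fell. Rps7 fell in efficiency by a log2 change of -2.99 ± 0.066 (edgeR adjusted p = 1.8e-40), Rps27a by -2.32 ± 0.066 (edgeR adjusted p = 1.5e-35) and Rpl11, whose start is printed above, by -2.35 ± 0.067 (edgeR adjusted p = 1.6e-35). Rpl5, the partner of Rpl11 in binding Mdm2, was at -1.74 ± 0.061 (edgeR adjusted p = 1.8e-31). Nop53, which holds Rpl11 in the nucleolus, was at -1.49 ± 0.079 in efficiency, with RNA at 0.53 ± 0.048. The exceptions were Gnl3, nucleostemin, which rose by 0.35 ± 0.078 (edgeR adjusted p = 0.00023), and Rps27l, itself a p53 target, at 0.07 ± 0.081 (edgeR adjusted p = 0.49). Under rapamycin the same list had 8 falls and 1 rise in efficiency against DMSO, where 16.4% of all genes were called, with a median of -0.36, and Rps27l was the gene that rose, by 0.53 ± 0.080 (edgeR adjusted p = 1.5e-06). Most of these genes encode ribosomal proteins, which have many processed pseudogenes, and how shared reads were counted is not stated.

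Further direct p53 targets showed no common direction. Of 42 listed, 30 were tested, and with Rapalink-1 against DMSO 8 rose and 7 fell in RNA, where 38.2% of all genes were called. With library totals this was 6 and 8, where 1123 of all genes rose and 3731 fell. In footprints 8 rose and 7 fell, where 53.7% of all genes were called. With library totals this was 15 and 4, where 5400 of all genes rose and 1587 fell. In efficiency 5 rose and 3 fell, where 22.3% of all genes rose and 19.9% fell, or 14 and 1 with library totals, where 5563 of all genes rose and 841 fell. The median efficiency change was 0.07 against 0.06 over all genes, and 0.44 against 0.43 with library totals. Aen, a nuclease that acts in apoptosis, fell in RNA by a log2 change of -1.17 ± 0.076 (edgeR adjusted p = 7.3e-17) and in footprints by -1.07 ± 0.076 (edgeR adjusted p = 4.5e-15). Tigar, which lowers glycolytic flux, fell by -1.41 ± 0.14 in RNA (edgeR adjusted p = 2.1e-11) and by -1.38 ± 0.10 in footprints (edgeR adjusted p = 1.3e-14). For both the efficiency change, 0.15 ± 0.11 for Aen and 0.07 ± 0.17 for Tigar, did not pass. The kinase Plk2 rose in footprints by 1.00 ± 0.12 (edgeR adjusted p = 6e-09), and Apaf1, the scaffold of the apoptosome, rose in efficiency by 0.83 ± 0.17 (edgeR adjusted p = 7.1e-05). Plk3 fell in efficiency by -1.15 ± 0.21 (edgeR adjusted p = 1.6e-05) and Pold1, a DNA polymerase subunit, by -0.53 ± 0.082 (edgeR adjusted p = 4.2e-07). With library totals only 1 gene of this list was called lower in efficiency, so the falls of Plk3 and Pold1 were not both called there. Pold1 RNA rose by 0.63 ± 0.055 (edgeR adjusted p = 1.2e-12).

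Among targets described as restraining mTOR or promoting autophagy, beside Sesn1, 15 of 17 were tested. With Rapalink-1 against DMSO 3 rose and 3 fell in efficiency, close to the 22.3% and 19.9% of all genes, or 8 and 0 with library totals, where 5563 of all genes rose and 841 fell. The median was 0.14 against 0.06 over all genes, and 0.51 against 0.43 with library totals. In RNA 2 rose and 2 fell, where 38.2% of all genes were called. With library totals this was 0 and 4, where 1123 of all genes rose and 3731 fell. In footprints 5 rose and 6 fell, where 53.7% were called. With library totals this was 7 and 3, where 5400 of all genes rose and 1587 fell. Sesn2, the relative of Sesn1, fell in RNA by a log2 change of -1.22 ± 0.19 (edgeR adjusted p = 1e-06) and in footprints by -1.12 ± 0.17 (edgeR adjusted p = 8.8e-07). Ddit4, an mTORC1 inhibitor, fell in RNA by -0.57 ± 0.13 (edgeR adjusted p = 0.00037). The autophagy kinases Ulk2 and Ulk1 rose in efficiency, by 1.42 ± 0.22 (edgeR adjusted p = 4.1e-07) and 0.88 ± 0.25 (edgeR adjusted p = 0.0033). Tsc2, a subunit of the complex that switches off Rheb, fell by -0.54 ± 0.14 (edgeR adjusted p = 0.0011). The call of Tsc2 was lost with library totals, where no gene of this list was called lower in efficiency.

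All 18 cell cycle genes that p53 is known to repress through p21 were tested, and with Rapalink-1 against DMSO 9 rose and 2 fell in efficiency, beside 22.3% and 19.9% of all genes. With library totals 15 rose and 0 fell, where 5563 of all genes rose and 841 fell. The median was 0.13 against 0.06 over all genes, and 0.50 against 0.43 with library totals. In RNA 7 rose and 3 fell, where 38.2% of all genes were called. With library totals this was 3 and 8, where 1123 of all genes rose and 3731 fell. In footprints 9 rose and 4 fell, where 53.7% were called. With library totals this was 14 and 1, where 5400 of all genes rose and 1587 fell. Bub1b, a spindle checkpoint kinase, rose in footprints by 0.74 ± 0.053 (edgeR adjusted p = 3.7e-15) and in efficiency by 0.51 ± 0.070 (edgeR adjusted p = 2.6e-08). Foxm1, a transcription factor for mitotic genes, rose in efficiency by 0.85 ± 0.14 (edgeR adjusted p = 2.4e-06) and Cks2, a Cdk subunit, by 0.42 ± 0.097 (edgeR adjusted p = 4e-04). Kif20a, a mitotic kinesin, rose in RNA by 0.43 ± 0.048 (edgeR adjusted p = 1.2e-09), as did Top2a, topoisomerase II alpha, by 0.43 ± 0.043 (edgeR adjusted p = 5.6e-11). The phosphatase Cdc25a fell in RNA by a log2 change of -0.88 ± 0.062 (edgeR adjusted p = 1.8e-15) and in footprints by -0.52 ± 0.074 (edgeR adjusted p = 1.7e-07).

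**Figure D4:**
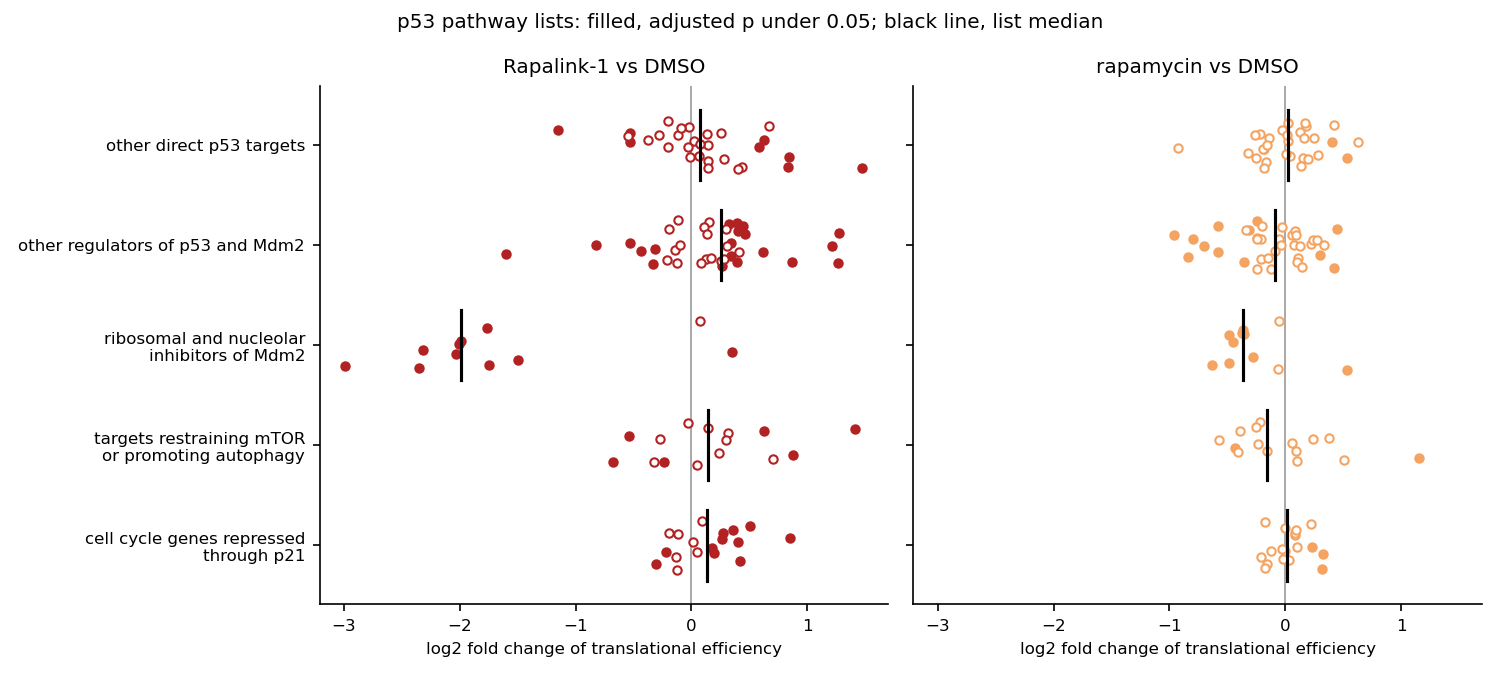
Log2 change of translational efficiency (horizontal axis) for the genes of the 5 pathway lists, with Rapalink-1 against DMSO on the left in red and rapamycin against DMSO on the right in orange; filled points have an adjusted p under 0.05 and black lines are list medians. The ribosomal and nucleolar inhibitors of Mdm2 have medians of -1.99 with Rapalink-1 and -0.36 with rapamycin, and the regulators have medians of 0.26 and -0.08.

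The authors' deposited tables hold comparisons with DMSO only and gave the same signs for all 6 genes. For efficiency with Rapalink-1 against DMSO, the authors' deposited table has 0.42 for Trp53, 0.58 for Mdm2, 0.67 for Mdm4, -0.49 for Ccng1, 1.00 for Zmat3 and -0.33 for Sesn1. A difference in call was in Ccng1 footprints with rapamycin against DMSO, where the authors' deposited table has -0.30 with an adjusted p of 0.028, against 0.12 in the fit with edgeR.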

How the data were processed

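Ribosome footprints and total RNA were measured with the ARTseq kit in 18 libraries, per the labels' protocols, with 3 replicates per treatment and assay. The reads were aligned by the authors to GRCm38 (mm10), per the submitters' processing notes; which aligner, counter and annotation were used, and whether strand was, is not stated there. Values in the count table are whole-number reads per transcript, as the authors deposited them. The signal values (baseMean), the log2 values (log2FoldChange, lfcSE), the score values (stat) and the p-value columns of the comparison tables are the authors' own, as deposited, in the layout of DESeq2 results.

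The 27382 transcript rows, 6378 of them at 0 in every library, were merged by equal counts or Ensembl gene to 15307 features. The row with most reads was kept for 62 features whose rows differed, and 16 features are shared by different symbols. Features without a symbol hold 1.8 to 2.1% of reads and stayed in the fits. Genes passed filterByExpr with a minimum count of 10 and total of 15, which left 11271 for RNA, 11281 for footprints and 10988 for efficiency. Counts were fitted with TMM factors by the quasi-likelihood method of edgeR 4.0.16 (R 4.3.3, limma 3.58.1), robust, and p-values were adjusted by Benjamini-Hochberg over all genes. Variation between replicates (biological coefficient of variation) came to 5.72% for RNA, 6.38% for footprints and 6.05% jointly. The scripts were tested on simulated data. DESeq2 1.42.0, its size factors, library totals, no filter, summed rows, a replicate block, only the treatments compared, and leaving out each replicate were tried. In the efficiency fit a replicate left out took both its footprint and its RNA library with it. Same-numbered libraries of different treatments correlated in their deviations between -0.176 and 0.047 in RNA and between -0.188 and 0.225 in footprints. In footprints 5 of 9 correlations were over 0.1, and in RNA 0 of 9. Whether the numbers pair the samples cannot be told from these values. Sequences and positions are from RefSeq GRCm38.p6. Python 3.11.15, pandas 2.3.3 and matplotlib 3.10.9 were used.

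Genes were named by a rule: the 8 symbols in every comparison, up to 3 genes of each list with the smallest p among those called with Rapalink-1 against DMSO, per measure, and for each gene of the set the 3 genes of highest correlation. A gene that this rule selects is not reported here. Rpl5, Nop53, Gnl3 and Rps27l in efficiency, and the values of named genes in other measures or under rapamycin, were chosen after their values were seen. The genes and lists were chosen with earlier results of these data known.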

Additional observations from a re-analysis of the deposited data

How the results depend on the processing

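Of 720 values of single genes under alternatives, 673 kept direction and side of the threshold, 16 lost and 9 gained a call, and 22, none of them called, changed sign. The number of the 6 genes called was 4, all lower, with library totals in RNA of Rapalink-1 against DMSO, where TMM gave 2. Of all genes, 4854 were called there with library totals, 3731 as lower, and 4305 with TMM, 2123 as lower. The number was 0 with only the treatments compared in footprints of rapamycin against DMSO, where the fit of all treatments gave 1. Of all genes, 1854 and 2047 were called in these fits. Leaving out a replicate gave 1 to 3 genes called for RNA of rapamycin against DMSO, beside 1992 to 2764 of all genes. For footprints of rapamycin against DMSO it gave 0 to 2, beside 1512 to 2029 of all genes. For footprints between the drugs it gave 3 to 5, beside 5376 to 5564. For efficiency of rapamycin against DMSO it gave 0 to 1, beside 1246 to 1924. With library totals, signs changed for Rapalink-1 against DMSO in footprints of Zmat3 (0.018) and Sesn1 (0.14) and efficiency of Sesn1 (0.046). They also changed for rapamycin against DMSO in footprints (0.0065) and efficiency (0.025) of Mdm2, and between the drugs in footprints of Sesn1 (0.028) and efficiency of Ccng1 (0.093) and Sesn1 (0.20). Leaving out a replicate changed signs in RNA of Rapalink-1 against DMSO for Trp53 (-0.22 to 0.00031), Mdm2 (-0.078 to 0.028) and Mdm4 (-0.086 to 0.0069), of rapamycin against DMSO for Mdm2 (-0.056 to 0.033), and between the drugs for Mdm2 (-0.052 to 0.015) and Sesn1 (-0.095 to 0.082). It also did so in footprints of Sesn1 with rapamycin against DMSO (-0.025 to 0.16), and in efficiency of Mdm2 with rapamycin against DMSO (-0.077 to 0.056) and of Sesn1 between the drugs (-0.21 to 0.0090). The cause was not tested. A replicate block changed no call of the 6 genes, with 5 called in efficiency of Rapalink-1 against DMSO with the block and without it, also when the block was the footprint and RNA library of 1 replicate; these pairs correlated between -0.087 and 0.201. Depth limits Zmat3 most, with 15 RNA reads in its lowest library.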

Other observations

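The genes whose log2 CPM, centred within each assay, followed each gene most closely over the 18 libraries were listed among 6016 (for Mdm4 and Zmat3, 6017) genes with a mean log2 CPM of at least 4 in both assays; the libraries share treatment and assay effects, and the correlations are descriptions. For Trp53 they were Tbl1x (r = 0.937), Arid1a (0.921) and Kmt2a (0.908). For Mdm2 they were Fbxo9 (0.946) and Zfp317 (0.920), and for Mdm4 Ppp3ca (0.920), N4bp2 (0.915) and Arid2 (0.912). Ccng1 was followed by Tmem123 (0.910), Tram1 (0.906) and Zcchc9 (0.903), and Zmat3 by Fam199x (0.913), Celf1 (0.894) and Rc3h2 (0.894). Sesn1 had no close match, with Clstn1 (0.698), Cuedc2 (0.684) and Yeats4 (0.679) nearest.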
